A study of Mus musculus with 8 samples.

Results

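The 9 genes described here are CXC chemokines of the mouse, Ppbp, Pf4, Cxcl1, Cxcl2, Cxcl3, Cxcl5, Cxcl12, Cxcl14 and Cxcl16, out of 19938 genes measured. They were taken by symbol, each through the probe set with the highest mean over all 8 arrays, and each of the 9 had 1 probe set. The family was chosen by the measured rise of Ppbp, already known from this comparison, so the values of the 9 in this comparison are a description and test nothing of their own. The cells were C57Bl6 mouse smooth muscle cells from the aorta, in primary culture at passage 3 to 4, kept in DMEM with 10% FCS. Cultures given 100 nM jasplakinolide, a sponge-derived peptide that locks actin into filaments, for 24 h (4 arrays) were compared with cultures without it (control, 4 arrays). The labels do not say whether arrays of a group come from separate cultures or animals, so p-values reflect variation among these arrays only, which could be technical, and the number of arrays limits the precision.

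Chemokines are small secreted proteins that guide leukocytes along gradients, usually held on heparan sulfate chains of cell surfaces and matrix, and signal through G protein-coupled receptors. Members with a glutamate-leucine-arginine stretch ahead of the first cysteines (Ppbp after trimming, Cxcl1, Cxcl2, Cxcl3 and Cxcl5) attract neutrophils, in mice mainly through Cxcr2. Pf4, Cxcl12, Cxcl14 and Cxcl16 lack that stretch: Pf4 is a heparin-binding platelet protein, Cxcl12 retains and recruits progenitors and lymphocytes through Cxcr4, and Cxcl16 is made as a membrane protein that binds Cxcr6. Ppbp and Pf4 are best known from the granules of platelets, and arterial smooth muscle is a known source of Cxcl12 and, when inflamed, of Cxcl1.

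All values below are log2 levels made by RMA, a method that corrects, normalises and sums the probes of a probe set, so a difference of 1 is a 2-fold change. Array medians lay between 7.30 and 7.39. Jasplakinolide 4 (19.4) and control 2 (12.1) lay at one end of the first principal component, which held 43.3% of the variance, and values without both are given where they bear on a result. The brightest 10% of genes held 4 of 10 smooth muscle markers, 7 of 12 endothelial markers and 3 of 9 markers of adventitial fibroblasts. Some markers of the labelled cell type were thus bright, as were some of endothelium and of adventitial fibroblasts. A bulk array cannot tell fewer cells of a type from less RNA per cell. A difference was called at a Benjamini-Hochberg adjusted p under 0.05 in limma over all 19938 genes.

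Ppbp, the precursor of the neutrophil attractant NAP-2, was the only one of the 9 to be called, and it was higher with jasplakinolide. Its level was 7.67, 7.51, 7.81 and 7.66 in jasplakinolide cultures 1 to 4, against 6.87, 6.53, 6.84 and 6.69 in control cultures 1 to 4. The lowest treated array thus lay above the highest control array. Group means were 7.66 ± 0.12 with jasplakinolide and 6.73 ± 0.16 in control (SD, n = 4 each), a log2 difference of 0.93 ± 0.09 (SE, 95% interval 0.74 to 1.13) or 1.91-fold. The adjusted p in limma was 0.00205, and 10 of all genes had a larger positive difference. Over all genes 0.772% were called, 0.436% higher and 0.336% lower, and 1 of the 9 members was. Since the set was picked for this difference, nothing is read from that count. Taking the replicate numbers as pairs, which rests on the data and not on the labels, 1.89% of genes were called, and the 4 same-number differences of Ppbp were 0.80, 0.98, 0.97 and 0.97. Without control 2 and jasplakinolide 4 the Ppbp difference was 0.86 ± 0.08 (SE).

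**Figure D1:**
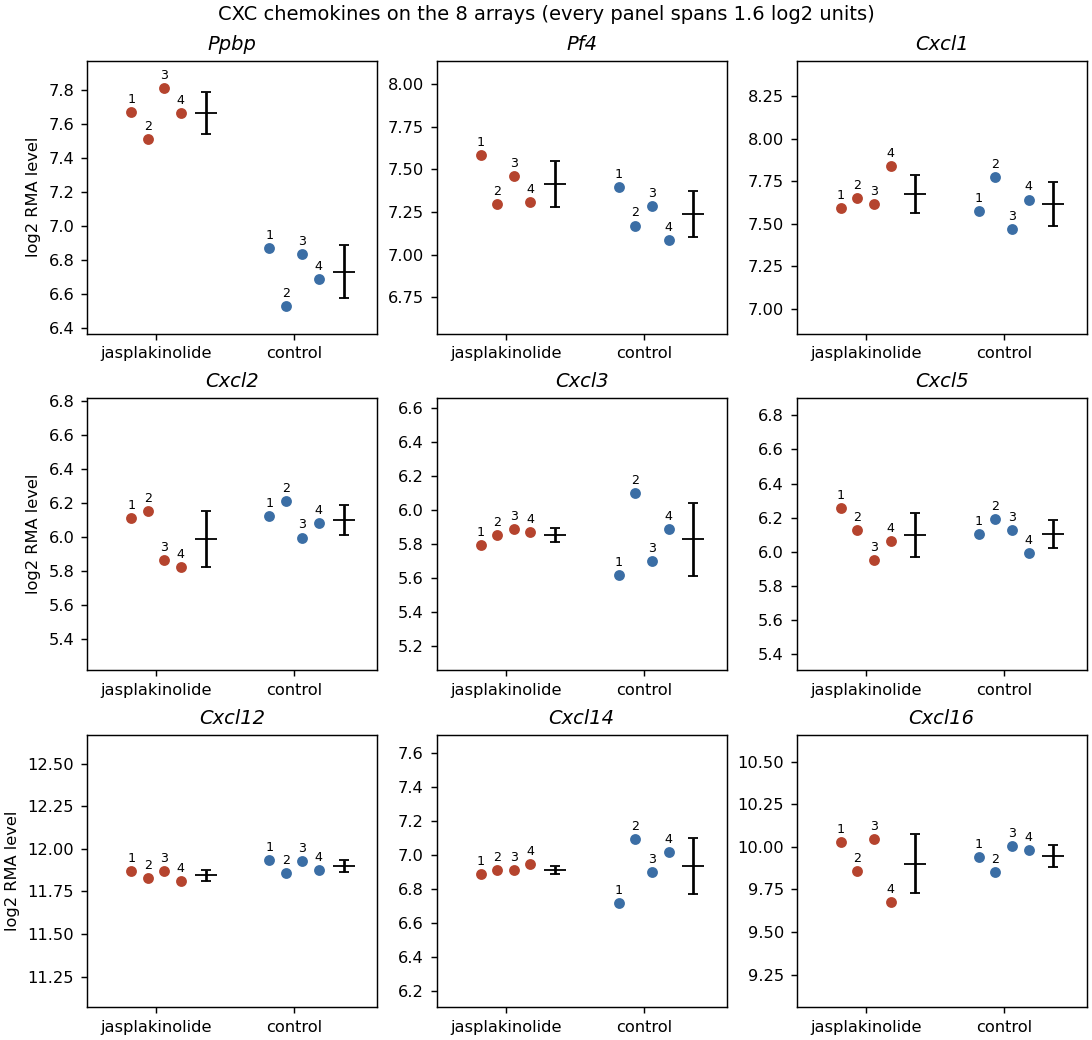
Log2 RMA level of each of the 9 CXC chemokines on the 4 jasplakinolide arrays (red, left) and the 4 control arrays (blue, right), with replicate numbers beside the points and the group mean ± SD (n = 4) as a black bar. Ppbp is the only panel in which the groups do not overlap: the treated arrays lie between 7.51 and 7.81 and the control arrays between 6.53 and 6.87.

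Pf4 (platelet factor 4), the gene next to Ppbp on chromosome 5, did not pass the test. It measured 7.58, 7.30, 7.46 and 7.31 in jasplakinolide cultures 1 to 4 and 7.40, 7.17, 7.29 and 7.09 in control cultures 1 to 4. The groups overlapped, with 2 treated arrays above all control arrays. Means were 7.41 ± 0.14 with jasplakinolide and 7.24 ± 0.13 in control (SD, n = 4 each), a difference of 0.18 ± 0.09 (SE, 95% interval -0.01 to 0.37). The adjusted p was 0.610 in limma and 0.0823 with the replicate number as a block. Each treated array was above the control array of the same number, by 0.19, 0.13, 0.17 and 0.22. The upper bound for Pf4 is a 1.29-fold rise. Ppbp and Pf4 were not tested against each other.

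The bases before the 2 gene starts are shown because Ppbp was called and Pf4, its neighbour, was not, and those of Cxcl1 stand for the 3 neutrophil attractants farther along the cluster. Each run is the 250 bases ahead of the annotated start from RefSeq (GRCm38.p6, plus strand): chr5:90768268-90768517 for Ppbp, chr5:90772185-90772434 for Pf4 and chr5:90890995-90891244 for Cxcl1. Capitals mark matches to 6 motifs searched on both strands, among them the CArG box, which is bound by serum response factor, and the NF-kB site. The AP-1 site was searched as TGANTCA, with any base at N. The TATA box was searched as TATAA on the strand of the gene and on its complement. Sites of GATA factors were searched as AGATAA, and those of TEAD factors, the partners of YAP, as GGAATG.
Ppbp: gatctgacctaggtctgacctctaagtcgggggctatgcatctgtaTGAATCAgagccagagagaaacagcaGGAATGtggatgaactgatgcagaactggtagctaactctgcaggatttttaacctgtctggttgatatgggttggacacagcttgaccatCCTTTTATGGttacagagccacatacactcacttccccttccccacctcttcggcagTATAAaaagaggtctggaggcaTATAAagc
Pf4: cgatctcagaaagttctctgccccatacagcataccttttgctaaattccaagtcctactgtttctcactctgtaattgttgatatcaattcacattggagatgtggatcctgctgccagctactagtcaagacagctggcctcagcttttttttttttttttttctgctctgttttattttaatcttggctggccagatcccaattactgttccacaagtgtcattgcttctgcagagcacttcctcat
Cxcl1: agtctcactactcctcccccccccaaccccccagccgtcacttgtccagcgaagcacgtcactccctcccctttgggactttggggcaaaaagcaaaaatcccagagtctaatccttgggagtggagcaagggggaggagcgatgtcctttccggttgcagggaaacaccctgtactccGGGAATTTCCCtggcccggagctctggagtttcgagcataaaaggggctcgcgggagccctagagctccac

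Ppbp had a CArG box, CCTTTTATGG, 87 to 78 bases before its start, as well as a TATA box 30 to 26 bases before it, a further TATA match nearer the start, and farther out a TEAD and an AP-1 site. None of the 6 motifs was found in this window of Pf4. The 7 members with an entry in the promoter table were Ppbp, Pf4, Cxcl1, Cxcl2, Cxcl3, Cxcl12 and Cxcl14, and Ppbp was the 1 with a CArG box. Of all 32817 promoter windows of that length 1.47% held one. Cxcl1, Cxcl2 and Cxcl3 each held the run GGGAATTTCCC, which matches the NF-kB site on both strands with an offset of 1 base. It began 71 bases before the start in Cxcl1, 97 in Cxcl2 and 73 in Cxcl3, and NF-kB sites were present in 7.25% of all windows. AP-1 sites were found in 6.75%, TATA boxes in 22.8%, GATA sites in 9.99% and TEAD sites in 12.6% of windows. Among genes called higher with jasplakinolide that have a promoter entry, 8 of 67 (11.9%, Ppbp included) held a CArG box, compared with none of 54 called lower and 1.45% of all 15606 genes tested that have one. These are letter matches and carry no test, and whether any of them is used in these cells was not measured.

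The neutrophil attractants Cxcl1, Cxcl2, Cxcl3 and Cxcl5 were close to their control levels, and none passed the test (adjusted p 0.808 to 0.996, limma). Cxcl1 measured 7.59, 7.65, 7.61 and 7.84 in jasplakinolide cultures and 7.58, 7.77, 7.47 and 7.64 in control cultures, a difference of 0.06 ± 0.08 (SE, 95% interval -0.12 to 0.23). Cxcl2 measured 6.11, 6.15, 5.87 and 5.83 with jasplakinolide and 6.12, 6.21, 5.996 and 6.08 in control, a difference of -0.11 ± 0.08 (SE, interval -0.30 to 0.07). Jasplakinolide 3 and 4 were below every control array for Cxcl2, while jasplakinolide 1 and 2 were within the control range. Without control 2 and jasplakinolide 4 the Cxcl2 difference was -0.024.

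Cxcl3 measured 5.79, 5.85, 5.89 and 5.87 with jasplakinolide and 5.62, 6.10, 5.70 and 5.89 in control, a difference of 0.02 ± 0.09 (SE, interval -0.19 to 0.24). All 4 treated arrays of Cxcl3 lay within the control range, and the spread was wider in control (SD 0.04 with jasplakinolide and 0.21 in control, n = 4 each). Cxcl5 measured 6.26, 6.13, 5.95 and 6.06 with jasplakinolide and 6.10, 6.19, 6.12 and 5.99 in control, a difference of -0.0035 ± 0.07 (SE, interval -0.16 to 0.16). Its treated arrays lay on both sides of the control range, 1 above it and 1 below. The signals of Cxcl2, Cxcl3 and Cxcl5 were dim, with 82.8%, 78.4% and 83.4% of 1027 olfactory receptor genes below them, and dim signals understate differences. Probe sets differ in brightness for the same amount of RNA, so these shares do not show presence or absence. For Ppbp, Pf4 and Cxcl1 the shares were 97.8%, 98.3% and 99.1%. All these shares use the mean over the 8 arrays, so the share of Ppbp includes its higher treated arrays. In control alone Ppbp averaged 6.73, just under the 95th percentile of the olfactory receptor means (6.76). Its control signal was thus dim too, and its fold change may be understated.

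Cxcl12, Cxcl14 and Cxcl16, which lie outside the cluster and lack the glutamate-leucine-arginine stretch, also did not pass. Cxcl12, on chromosome 6, was bright (96.4% of all genes had a lower mean signal) and measured 11.87, 11.83, 11.87 and 11.81 with jasplakinolide and 11.93, 11.86, 11.93 and 11.87 in control. The difference was -0.05 ± 0.04 (SE, interval -0.15 to 0.04, adjusted p = 0.824 in limma), the narrowest interval among the 9. Jasplakinolide 2 and 4 were below every control array, and all 4 same-number differences of Cxcl12 were negative, between -0.06 and -0.03.

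Cxcl14, a chemokine of epithelia and fibroblasts on chromosome 13, measured 6.89, 6.91, 6.91 and 6.95 with jasplakinolide and 6.72, 7.10, 6.90 and 7.02 in control. All treated arrays lay within the control range, and the difference was -0.02 ± 0.08 (SE, interval -0.19 to 0.15). Cxcl16, on chromosome 11, measured 10.03, 9.86, 10.05 and 9.67 with jasplakinolide and 9.94, 9.85, 10.00 and 9.98 in control, a difference of -0.04 ± 0.08 (SE, interval -0.23 to 0.14). Jasplakinolide 4 was the lowest of the 8 arrays for Cxcl16 and jasplakinolide 1 and 3 the highest, and without jasplakinolide 4 the difference was 0.03. The difference was 0.0008 without control 2 and jasplakinolide 4. Adjusted p values were 0.977 for Cxcl14 and 0.951 for Cxcl16 in limma.

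Apart from Ppbp, the 8 members had a median log2 difference of -0.01, against 0.01 for all genes, of which most (all but the outer 5% at each end) lay between -0.16 and 0.15. Of the 9, 4 had a higher and 5 a lower mean with jasplakinolide, while 56.4% of all genes had a higher one. Groups overlapped in 8 of the 9, while 6.91% of all genes had groups that did not overlap. At an unadjusted p under 0.05, and also with the replicate block, Ppbp remained the only member to pass in limma. The 95% intervals of the 8 span at most 0.81-fold (Cxcl2, lower bound) to 1.29-fold (Pf4, upper bound).

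Of the 9 members, 6 lie in 1 cluster on chromosome 5, in the order Cxcl5, Ppbp, Pf4, Cxcl3, Cxcl1 and Cxcl2, with Cxcl15 between Cxcl3 and Cxcl1. Cxcl15 (lungkine in the mouse) averaged 5.01 ± 0.23 with jasplakinolide and 4.92 ± 0.17 in control (SD, n = 4 each) and did not pass. Thus Ppbp lay between 2 genes, Cxcl5 and Pf4, that were not called. Of the 4 measured protein-coding genes on either side of the cluster, 8 in all, 1 was called, against 0.772% of all genes. This was Rassf6, a Ras-association domain protein whose gene is next to Cxcl5. Rassf6 averaged 7.20 ± 0.11 with jasplakinolide and 6.71 ± 0.14 in control (SD, n = 4 each), a difference of 0.49 ± 0.08 (SE, adjusted p = 0.0312 in limma). It kept its call without control 1 only, and missed the threshold without any other single array (adjusted p 0.0569 to 0.120) and without control 2 and jasplakinolide 4 (0.0987). Ereg, which encodes the growth factor epiregulin, averaged 11.54 ± 0.08 with jasplakinolide and 11.18 ± 0.16 in control (SD, n = 4 each), with no overlap between the groups, but did not pass in limma (0.36 ± 0.08, SE, adjusted p = 0.0944, and 0.0274 with the replicate block). The other flanking genes, Afp, Afm, Albfm1, Mthfd2l, Epgn and Btc, had differences between -0.18 and 0.07.

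**Figure D2:**
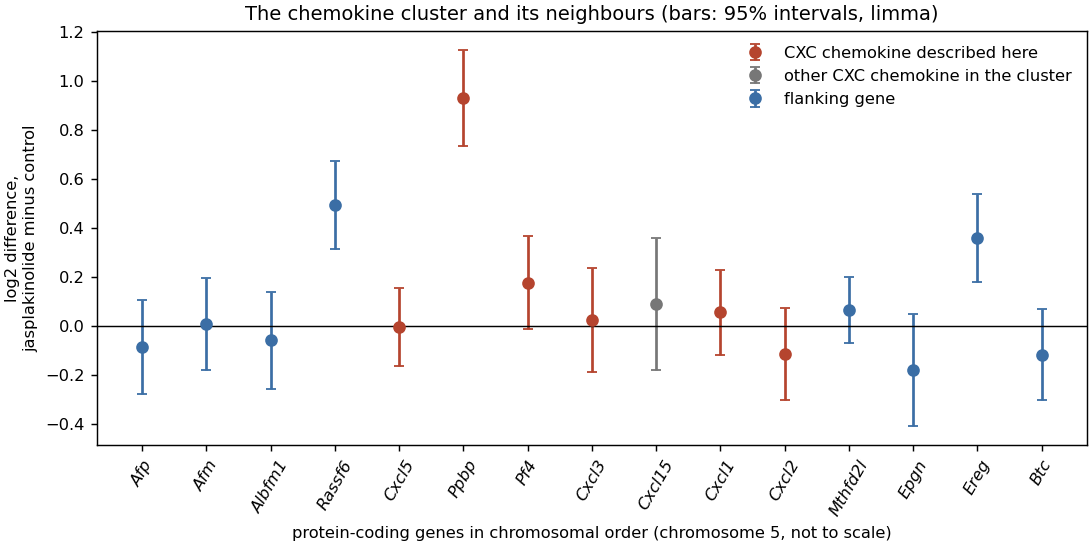
Log2 difference, jasplakinolide minus control, of the protein-coding genes of the chemokine cluster on chromosome 5 and of the 4 measured genes on each side, in chromosomal order and not to scale, with 95% intervals from limma (n = 4 arrays per group). Ppbp (0.93) stands above its neighbours Cxcl5 (-0.0035) and Pf4 (0.18), and Rassf6 (0.49) and Ereg (0.36) are the flanking genes whose intervals lie above 0.

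The genes with a profile closest to that of Ppbp over the 8 arrays were found by the root mean square distance between log2 profiles, each centred on its own mean. They were Dmd (dystrophin, distance 0.131), Myl9 (a regulatory light chain of smooth muscle myosin, 0.137), Lrrc27 (a leucine-rich repeat protein, 0.143), Bves (a Popeye-domain membrane protein, 0.148) and Nrp2 (neuropilin, a receptor for semaphorins and VEGF, 0.149). Each of the 5 was called higher with jasplakinolide, as the choice by likeness to Ppbp makes likely. Lrrc27 missed the threshold without control 4, jasplakinolide 1, jasplakinolide 3 or jasplakinolide 4 (adjusted p 0.0587 to 0.0954 in limma). Myl9 averaged 12.85 ± 0.08 with jasplakinolide and 11.98 ± 0.07 in control, and Dmd 8.96 ± 0.17 with jasplakinolide and 7.81 ± 0.20 in control (SD, n = 4 each). Control 2 was the lowest array for Ppbp, Dmd, Lrrc27 and Nrp2. A CArG box was found in the window of Myl9 and in 1 of 2 windows of Dmd, and in none of those of Lrrc27 and Nrp2. Bves had no promoter entry and could not be searched. Among genes with a promoter entry, 1.45% of all tested and 11.9% of those called higher held a CArG box. The 5 genes were picked by likeness to Ppbp, so nothing is read from these matches. The nearest other member by this distance was Pf4 (0.391), at rank 333 among all genes, and the next was Cxcl1 (0.481), at rank 8552. The distance includes the step between the groups, so these ranks largely restate the differences given above.

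**Figure D3:**
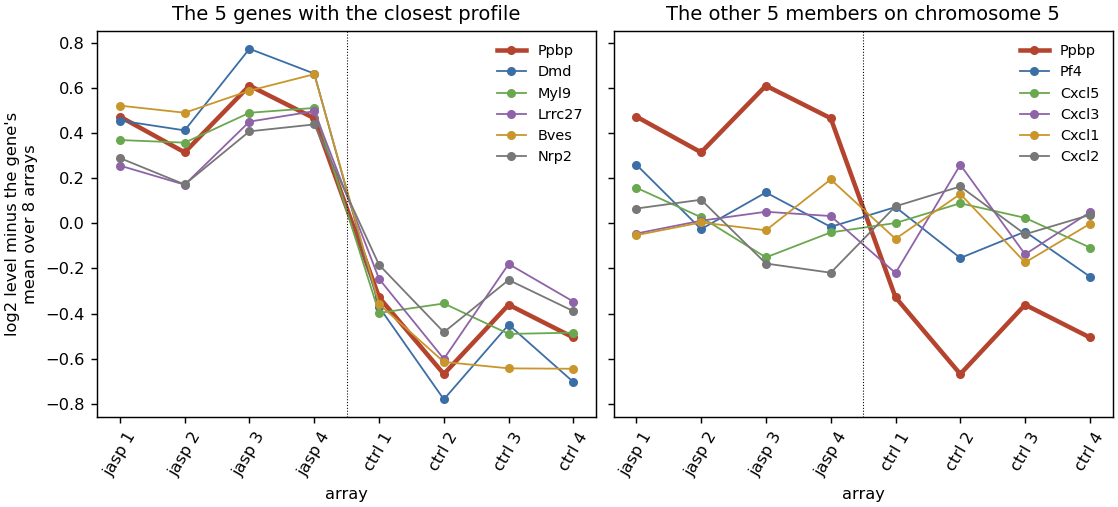
Log2 level on each array minus the gene's mean over the 8 arrays, for Ppbp (thick red line in both panels) with the 5 genes of closest profile (left) and with the other 5 members on chromosome 5 (right); jasplakinolide arrays stand left of the dotted line and control arrays right of it. In the left panel all lines step down between the groups, and in the right panel Pf4 is higher by 0.18 with jasplakinolide, while Cxcl1, Cxcl2, Cxcl3 and Cxcl5 differ by -0.11 to 0.06.

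Ppbp and Pf4 are platelet genes, so other platelet and megakaryocyte markers were looked at. Of 10 measured markers, Pf4 among them, none was called (limma, 1 higher at an unadjusted p under 0.05). The 9 other than Pf4 had differences between -0.10 and 0.12. Itga2b (integrin alpha IIb) averaged 7.59 ± 0.02 with jasplakinolide and 7.51 ± 0.14 in control, and Itgb3, its partner, which smooth muscle also makes, 10.91 ± 0.06 with jasplakinolide and 10.78 ± 0.06 in control (SD, n = 4 each). The mean level of the 10 markers lay between 7.51 and 7.59 on the jasplakinolide arrays and between 7.42 and 7.58 on the control arrays, with none of the 10 in the brightest 10% of genes. RMA values have no 0, so no marker can be called absent. The list's median difference was 0.04, against 0.01 for all genes.

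Of 12 macrophage markers none was called, with mean levels between 8.16 and 8.28 on the jasplakinolide arrays and 8.15 and 8.24 on the control arrays and a median difference of 0.04. At an unadjusted p under 0.05, 3 were higher and 1 lower, 4 of the 12, against 8.87% of all genes. Cd68 averaged 8.79 ± 0.12 with jasplakinolide and 9.03 ± 0.08 in control (adjusted p = 0.226, and 0.0424 with the replicate block), and Aif1 6.36 ± 0.17 with jasplakinolide and 6.18 ± 0.06 in control (SD, n = 4 each). None of 12 neutrophil and T cell markers was called either (none at an unadjusted p under 0.05), with a median of 0.06, Mpo at 0.17 ± 0.09 and Cd2 at 0.16 ± 0.10 (SE).

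Markers of the vessel wall moved in the same comparison as Ppbp. Of 10 smooth muscle markers 6 rose, against 0.436% of all genes, with a median of 0.40: the largest were Cnn1 (calponin, 1.34 ± 0.07), Actg2 (gamma-actin, 0.93 ± 0.10), Myh11 (myosin heavy chain, 0.81 ± 0.08) and Lmod1 (leiomodin, 0.68 ± 0.07; all SE). Acta2, smooth muscle actin and a further 1 of the 6, missed the threshold whichever single array was dropped (adjusted p 0.0593 to 0.128 in limma), after median centring (0.107) and without control 2 and jasplakinolide 4 (0.0902). The mean level of the 10 markers lay between 10.57 and 10.77 on the jasplakinolide arrays and between 10.12 and 10.25 on the control arrays. Of 12 endothelial markers 1 fell, Robo4, a guidance receptor, by 0.41 ± 0.06 (SE), against 0.336% of all genes called lower. At an unadjusted p under 0.05, 6 of the 12 were lower and none higher, against 8.87% of all genes in either direction, and 6 of the 12 had jasplakinolide arrays all below the control arrays (6.91% of all genes had no overlap in either direction). The list's median was -0.11, with 10 of the 12 below 0. Robo4 missed the threshold without control 3, control 4, jasplakinolide 1 or jasplakinolide 2 (adjusted p 0.0580 to 0.0729 in limma). With the replicate block 3 fell, Kdr and Tek being the others, against 1.89% of all genes called in either direction. Kdr differed by -0.45 ± 0.15 (SE, adjusted p = 0.323 in limma, and 0.0424 with the block). Tek differed by -0.31 ± 0.08 (SE, adjusted p = 0.137 in limma, and 0.0354 with the block). The endothelial mean lay between 10.59 and 10.70 with jasplakinolide and between 10.79 and 10.83 in control. None of 9 adventitial fibroblast markers was called. At an unadjusted p under 0.05, 1 of the 9 was higher and 2 were lower, against 8.87% of all genes in either direction. Dcn (decorin) averaged 12.25 ± 0.16 with jasplakinolide and 12.79 ± 0.23 in control, and passed with the block (adjusted p = 0.0134), and Dpt averaged 5.09 ± 0.19 with jasplakinolide and 5.55 ± 0.17 in control (SD, n = 4 each). The part of these shifts in the Ppbp difference was not tested.

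The rest of the chemokine system was described by 9 further lists with 124 measured genes. None of the 124 was called in limma, against 0.772% of all genes. At an unadjusted p under 0.05, 18 (14.5%) passed, against 8.87% of all genes. With the replicate block 4 of the 124 were called, against 1.89% of all genes. Of the 6 remaining CXC chemokines none was called (none at an unadjusted p under 0.05), with a median of 0.04. The largest differences were those of Cxcl11 (0.13 ± 0.12), an interferon-induced ligand of Cxcr3, and Cxcl15 (0.09 ± 0.12, SE).

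Of 8 receptors for CXC chemokines none was called (none at an unadjusted p under 0.05), with a median of -0.00. Cxcr2, the receptor for the neutrophil attractants, averaged 4.56 ± 0.02 with jasplakinolide and 4.38 ± 0.21 in control, a difference of 0.18 ± 0.09 (SE), at a dim signal. Cxcr3 differed by 0.12 ± 0.10, Cxcr4, the signalling receptor for Cxcl12, by -0.03 ± 0.08, and Ackr3, which takes up Cxcl12, by -0.04 ± 0.05 (SE).

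Among 20 chemokines of the CC, C and CX3C classes none was called. At an unadjusted p under 0.05, 4 were lower and none higher, against 8.87% of all genes in either direction. With the replicate block 2 fell, against 1.89% of all genes called in either direction. The list's median was 0.02. Ccl2, the main monocyte attractant, measured 12.21, 12.16, 12.10 and 11.92 with jasplakinolide and 12.38, 12.50, 12.38 and 12.45 in control. The groups did not overlap, and the difference of -0.33 ± 0.07 (SE) missed the threshold (adjusted p = 0.0659, and 0.0634 with the block). Ccl7, a related monocyte attractant, averaged 8.03 ± 0.15 with jasplakinolide and 8.38 ± 0.11 in control (SD, n = 4 each), a difference of -0.35 ± 0.08 (SE, adjusted p = 0.126, and 0.0288 with the block). Ccl20, a ligand of Ccr6 named here after its values were seen, differed by -0.22 ± 0.06 (SE, adjusted p = 0.171, and 0.0499 with the block). None of 14 receptors of these classes was called (1 lower at an unadjusted p under 0.05, median -0.00), with Ackr4 at -0.21 ± 0.08 and Ccrl2 at -0.19 ± 0.13 (SE).

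Genes that act on chemokines or their induction likewise did not pass. Of 14 proteases that cut or shed chemokines none was called (1 lower at an unadjusted p under 0.05, median 0.00), with Mmp3 at -0.21 ± 0.12 and Mmp1a at -0.20 ± 0.11 (SE). Of 20 proteoglycans and heparan sulfate enzymes none was called (median -0.01). At an unadjusted p under 0.05, 2 were higher and 5 lower, against 8.87% of all genes in either direction. Groups did not overlap for 1 higher and 4 lower genes of the 20, against 6.91% of all genes. Hs3st1, a heparan sulfate sulfotransferase, averaged 7.54 ± 0.14 with jasplakinolide and 7.89 ± 0.06 in control (adjusted p = 0.0725), and Hpse, heparanase, 7.19 ± 0.13 with jasplakinolide and 7.47 ± 0.21 in control (SD, n = 4 each). Gpc6, a glypican named after its values were seen, differed by -0.28 ± 0.05 (SE, adjusted p = 0.0504) and fell with the replicate block (0.0378).

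Of 15 genes of the NF-kB pathway none was called (1 lower at an unadjusted p under 0.05, median -0.00), with Bcl3, an atypical inhibitor protein, at -0.28 ± 0.11 and Nfkbie at -0.13 ± 0.07 (SE). Of 20 inflammatory inducers and receptors none was called (1 higher and 1 lower at an unadjusted p under 0.05, median 0.00). Il1a, interleukin-1 alpha, averaged 6.83 ± 0.48 with jasplakinolide and 6.42 ± 0.43 in control (adjusted p = 0.766, and 0.0424 with the block), and Lif 9.39 ± 0.29 with jasplakinolide and 9.04 ± 0.24 in control (SD, n = 4 each). Of 7 leukocyte adhesion molecules none was called (median -0.14), with Icam1 at -0.25 ± 0.07 and Madcam1 at -0.17 ± 0.12 (SE). At an unadjusted p under 0.05, 2 of the 7 were lower, against 8.87% of all genes in either direction.

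**Figure D4:**
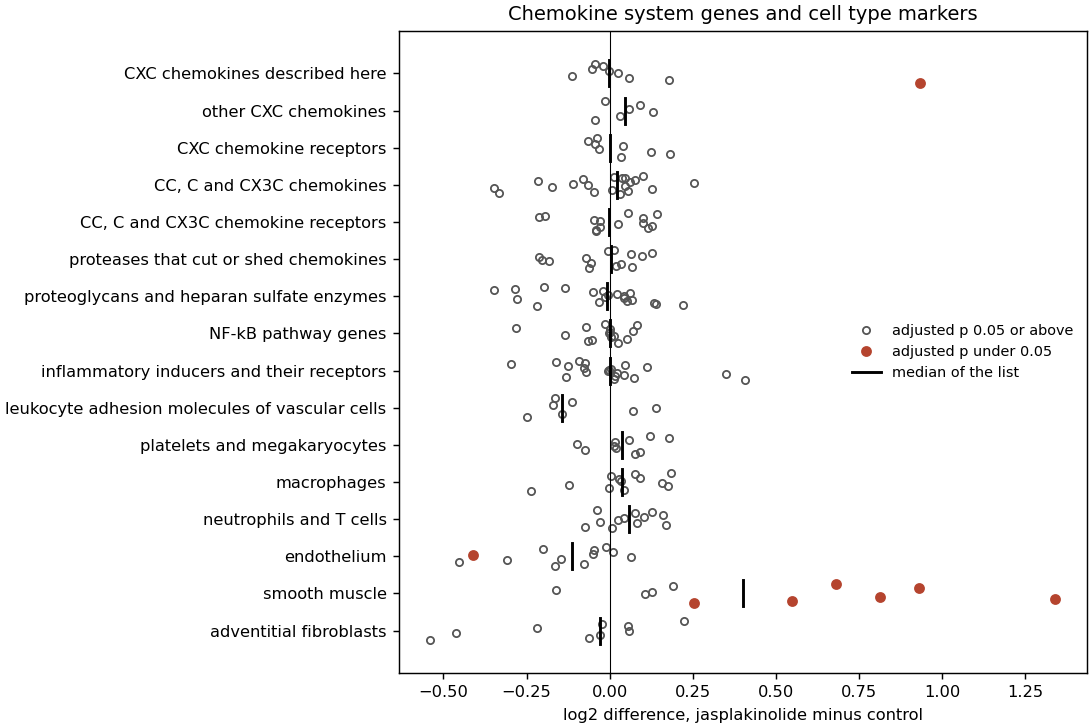
Log2 difference, jasplakinolide minus control, of each measured gene (points, spread vertically for legibility) in the set of CXC chemokines, 9 further lists of the chemokine system and 6 lists of cell type markers, with filled red points for adjusted p under 0.05 (limma) and black bars for list medians. Ppbp is the 1 filled point among the genes of the chemokine system, 6 filled points lie among the smooth muscle markers and 1 among the endothelial markers.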

How the data were processed

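Gene expression was measured on 8 Affymetrix arrays, 4 of jasplakinolide and 4 of control cultures, grouped by sample title. The authors deposited log2 levels for 35556 probe sets (2.29 to 14.2). Per the submitters' processing notes they were computed by RMA with Affymetrix Expression Console. No program version or genome build is given there, and detection calls were not used.

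Of the probe sets, 21789 had 1 gene symbol in the platform annotation, 1621 several and 12146 none, and the last 2 kinds were left out. Entrez identifiers of 21698 matched the reference gene table, changing 0 symbols. The brightest probe set was kept for 999 genes with several, leaving 19938 genes, with no filter on dim ones. The comparison was fitted by lmFit and eBayes of limma 3.58.1 (R 4.3.3), two-sided, with 6 residual and 3.43 prior degrees of freedom. The fit was tested on simulated data made from these genes' means and spreads, with 200 genes changed and arrays drawn independently. It called 29.3% of genes changed by 0.25, 73.7% of those changed by 0.5 and 97.6% of those changed by 1. Of its calls 5.33% were false. Most changes as small as 0.25 would thus be missed. The main fit used group only. Deviations from group means correlated across genes at 0.241 to 0.563 in all 4 same-numbered pairs (-0.618 to 0.521 in the others). Same-numbered arrays were therefore treated as pairs in an alternative fit, the replicate block, a pairing that no label states. The data do not settle it: jasplakinolide 4 correlated more with control 2 (0.521) than with control 4 (0.443). Values with this block stand beside results whose call it changed. Genes were otherwise named by 1 rule: all 9 members, up to 4 called genes per list or else the 2 with the largest differences, 4 receptors, the 5 closest profiles to Ppbp and 4 neighbours on each side of the cluster. Ccl20, Gpc6, Acta2, Kdr, Tek and Itga2b fall outside it and were named after their values were seen. Members, lists and alternatives were chosen with earlier results of these data known. Promoter sequences and gene order are RefSeq's (GRCm38.p6). Alternatives were the replicate block, dim-gene filters, 3 further normalizations, array weights, a robust prior with an intensity trend, means of probe sets and leaving out arrays. Plots were made in Python 3.11.15 with matplotlib 3.10.9.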

Additional observations from a re-analysis of the deposited data

Results flagged for a closer look

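Single arrays stood apart from the rest of their group in 7 of 142 groups of 4 checked. This was judged by the gap to the nearest other array as a share of the group's range. A small gap can therefore count where the other arrays lie close together, as for Lmod1. The groups checked covered 71 genes, some of them not named above, and Itga2b was not among them. About 1 in 20 is what chance gives. None concerns one of the 9 chemokines. On jasplakinolide 4, Cxcl15 was at 5.35 (others 4.86 to 4.93) and Nfkbie at 7.80 (others 8.04 to 8.06). On jasplakinolide 2, Ackr3 was at 6.14 (others 6.28 to 6.30). On control 1, Mmp1a was at 6.22 (others 5.74 to 5.80), Bves at 8.22 (others 7.94 to 7.97) and Madcam1 at 6.87 (others 7.32 to 7.39). On control 4, Lmod1 was at 8.15 (others 8.24).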

How the results depend on the processing

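Ppbp kept its direction and its call under all 17 alternatives that could give a value (log2 difference 0.86 to 0.98, adjusted p 0.000394 to 0.0143 in limma), the replicate block included (adjusted p = 0.00666). It is not among the brighter 50% of genes, where the count of called members is therefore 0. Pf4, Cxcl1, Cxcl2 and Cxcl12 kept their direction and stayed uncalled, but the size of the first 3 was not fixed: with 1 array left out, Pf4 ran from 0.12 to 0.23, Cxcl1 from 0.0022 to 0.11 and Cxcl2 from -0.17 to -0.06, and Cxcl2 was at -0.027 with array weights and -0.024 without control 2 and jasplakinolide 4. Cxcl5 turned to 0.0851 with array weights, and without control 2 and jasplakinolide 4 Cxcl5 turned to 0.0384, Cxcl14 to 0.0249 and Cxcl16 to 0.0008, none of them called. With 1 array left out, Cxcl3 ran from -0.0446 to 0.115, Cxcl5 from -0.0567 to 0.0463, Cxcl14 from -0.0907 to 0.0354 and Cxcl16 from -0.0928 to 0.0314. The count over all genes was 154 (87 higher). It was 377 (162 higher) with the replicate block, 231 (121 higher) and 296 (155 higher) among the brighter 75% and 50% of genes, 276 (131 higher) after a second quantile normalization, 299 (137 higher) after cyclic loess, 103 (69 higher) after median centring, 358 (193 higher) with an intensity trend and robust prior, 457 (223 higher) with array weights, and 109 (52 higher) without control 2 and jasplakinolide 4. With 1 array left out it was 43 to 150 (35 to 67 higher), and it fell by over 1.5 times without any array but control 2: 78 without control 1, 55 without control 3, 43 without control 4, and 55, 52, 59 and 71 without jasplakinolide 1, 2, 3 and 4. The cause was not tested. Among CC, C and CX3C chemokines 2 were lower with the block and 1 with the brighter 75% or 50% of genes, a second quantile normalization, cyclic loess, the trend or array weights. Among proteoglycan genes 1 was lower with the block or the brighter 75%, 2 with the brighter 50%, a second quantile normalization or cyclic loess, 3 with the trend, and 4 lower and 1 higher with array weights. The block gave 1 inflammatory inducer higher, 1 macrophage marker lower, 3 endothelial markers lower and 1 fibroblast marker lower. Endothelial markers lower were 2 with cyclic loess or array weights, 3 with the trend, and 0 to 1 with 1 array left out, 0 without control 3, control 4, jasplakinolide 1 or jasplakinolide 2. Adhesion molecules had 1 lower with the trend, and fibroblast markers 1 lower with the brighter 50%, the trend or array weights. Smooth muscle markers numbered 5 with any 1 array left out. Alternatives for Rassf6, Ereg, Robo4, Acta2 and Lrrc27 were added after the data had been seen. Dim signals and 4 arrays a group limit what can be seen of small changes.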
